A study of Mus musculus with 14 samples.

Results

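The Wnt genes described here are 42 of the 32289 genes in a gene-level table of mouse ascending aorta. They were taken by name: every gene whose symbol begins with Wnt, Fzd, Sfrp or Dkk followed by a digit, and Frzb, Wif1, Lrp5, Lrp6, Axin2, Daam1 and Daam2. By role they are 17 Wnt ligands, 12 receptors (10 Frizzled genes, Lrp5 and Lrp6), 9 secreted inhibitors, 3 genes that act inside the cell and Fzd10os, a transcript on the strand opposite Fzd10. The tissue came from C57BL/6 mice killed 6 weeks into an aneurysm model. Mice of the PBS group (3 libraries) are the controls, and those of the BAPN group (4 libraries) were fed β-aminopropionitrile, which blocks the lysyl oxidases that cross-link elastin and collagen. In the other two groups BAPN was combined with a compound that the labels call an integrin αV inhibitor: Cilengitide, a cyclic peptide (3 libraries), or SB273005 (4 libraries). Every library with an inhibitor therefore also carries BAPN, no group had an inhibitor alone, and the labels give neither doses nor the age or sex of the mice. They also do not say that each library is a separate animal, so the tests speak only of the spread between libraries, which may be technical.

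Wnt proteins are secreted ligands that bind Frizzled receptors at the cell surface. With the coreceptors Lrp5 and Lrp6 they stop the breakdown of β-catenin, which then switches on genes with TCF and LEF proteins; through other routes they act on the cytoskeleton, cell polarity and calcium. The secreted Frizzled-related proteins (Sfrp genes and Frzb) and Wif1 bind Wnt ligands outside the cell, while Dkk1 and Dkk2 act on Lrp5 and Lrp6. In the vessel wall the pathway has been studied for its role in smooth muscle growth, in fibroblasts and in vascular calcification.

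Total estimated counts were 49027885 to 72584877 per library. Smooth muscle, fibroblast and endothelial markers were present in every group, as the tissue label says, and so were kidney tubule and liver markers. Levels of 2 genes part the libraries into 2 sets that the labels do not name. Umod, a kidney gene, had 7.73 to 11.6 FPKM (fragments for each kilobase of transcript, a level relative to library size) in PBS and in SB273005 replicates 1 to 3, against 19.8 to 25.8 elsewhere. H2-Ea, a class II histocompatibility gene silent in the labelled strain by its known deletion, had 0 estimated counts in every library of the first set and 83 to 130 in the second; the strain of the libraries was not tested further. The first set thus holds all of PBS, and the second all of BAPN and Cilengitide, so in their comparisons with PBS a difference of sets and one of groups cannot be told apart. SB273005 replicates 1 to 3 share the set of PBS, and the difference between these 6 libraries is printed as "within the first set". SB273005 replicate 2 stands apart, with smooth muscle markers at a summed 1162 FPKM against 4569 to 6962 in the other 3 libraries of its group, and BAPN replicate 1 stands apart with fibroblast markers at a summed 2101 FPKM against 1063 to 1288. Over all libraries 5 kidney tubule markers summed to 195.4 to 350 FPKM and 5 liver markers to 35.81 to 350.2. Endothelial markers, also 5, summed to 41.34 to 111.9 FPKM. The source of the kidney and liver transcripts was not tested.

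Of the 42 genes, 25 reached an FPKM of 1 in at least 3 libraries and were tested: 7 ligands, 9 receptors, 6 secreted inhibitors and 3 intracellular genes. In PBS the secreted inhibitors were the most abundant class among the 42 genes. Dkk3, a divergent member of the Dickkopf family, was at 197 ± 8.15 FPKM (SD, n = 3) and Sfrp2 at 168 ± 34.7, followed by the receptors Fzd2 at 42.0 ± 4.59 and Fzd1 at 40.8 ± 6.35, the inhibitor Wif1 at 39.1 ± 2.19 and the receptor Fzd7 at 27.4 ± 1.72. Dkk3 and Sfrp2 do not differ beyond their spread in PBS (191.9 to 206.2 and 139 to 207 FPKM), nor do Fzd2, Fzd1 and Wif1. The ligands were all low: Wnt5a at 6.48 ± 1.69, Wnt9a at 6.06 ± 0.346 and Wnt16 at 4.15 ± 1.91 FPKM led, and overlap each other. Such orders between genes are on the deposited FPKM scale. For Wnt16, Wnt11, Lrp5 and Sfrp4 the FPKM of the transcripts sum to 2.69, 2.24, 1.89 and 1.89 times the gene's own value. For Lrp6, Axin2 and Daam1 they sum to 1.7, 1.56 and 1.39 times that value. The places of these genes in the order are therefore uncertain.

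Of the 17 genes not tested, 10 are ligands, and none of these reached an FPKM of 1 in any library; the highest was Wnt10b, at 0.384 to 0.984 FPKM. Wnt3 was above 0 in 1 library alone, PBS replicate 2, at 0.0174 FPKM. Fzd9 and Sfrp5 each passed 1 FPKM in some libraries, with highest values of 1.22 in SB273005 replicate 2 and 1.27 in PBS replicate 2, but in fewer than 3. Fzd3, Fzd10, Dkk1, Dkk2 and Fzd10os stayed under 1 FPKM throughout. Dkk2 ran from 0.175 to 0.949 FPKM, and Dkk1, the best-known soluble antagonist of the coreceptors, was at 0.108 FPKM or less.

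Against PBS, the groups given an inhibitor differed from the controls in Wnt gene expression, with Sfrp2, Frzb, Sfrp4, Fzd8 and Daam2 higher and Fzd2 lower in both. With BAPN alone, 0 of the 25 tested genes passed (edgeR quasi-likelihood test, adjusted p under 0.05 over all 13294 genes tested). In Cilengitide 6 rose and 1 fell, and in SB273005 6 rose and 3 fell. Over all genes tested, the percent called higher and lower was 0.181 and 0.0527 in BAPN, 3.98 and 1.6 in Cilengitide, and 7.82 and 5.38 in SB273005. The median log2 difference of the 25 genes was 0.11, 0.40 and 0.31 in the 3 comparisons, against 0.00, -0.02 and 0.02 for all genes tested. The 3 comparisons share their PBS libraries and are not independent. On FPKM without TMM scaling (limma on log2(FPKM + 1)) the split over all genes moved toward lower calls, from 529 higher and 213 lower to 354 and 262 in Cilengitide and from 1039 and 715 to 705 and 922 in SB273005, while that of the Wnt genes was 4 and 1, and 6 and 3. In a fit that adds the library set, 0 of the 25 passed in Cilengitide and 9 in SB273005, beside 0.0376% and 15% of all genes. All 7 genes called in Cilengitide had larger differences there with a wider error, such as Sfrp2 at 1.77 ± 0.56 (SE), Frzb at 2.32 ± 0.75, Daam2 at 1.39 ± 0.35 and Fzd2 at -0.96 ± 0.20 (edgeR adjusted p = 0.201, 0.204, 0.149 and 0.108). In that fit SB273005 replicate 4 is the single library that parts set from group, so the larger sizes lean on it and are not shown to be stronger effects.

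For BAPN vs. PBS, 5 of the 25 had an unadjusted p under 0.05, and DESeq2 called 1 of them, Fzd2, beside 3.61% of all genes. The share of all genes under that unadjusted cut was not taken. Such counts, here and below, are therefore no result about the Wnt genes or the lists. Groups did not overlap in FPKM for 4 genes in BAPN, 12 in Cilengitide and 12 in SB273005; over all genes tested, the percent whose groups do not overlap was 14.6, 31.9 and 23.2. Leaving out 1 library changed the calls among the Wnt genes and among all genes, where 5.58% passed in Cilengitide and 13.2% in SB273005 with every library kept. Some fits gained calls over all genes. Cilengitide had 9.4% without SB273005 replicate 2, and SB273005 had 15% without its replicate 4, with Wnt counts still at 7 and 9. Other fits lost calls. Without PBS replicate 2 the Wnt counts were 2 and 3, beside 0.82% and 3.75% of all genes, and without PBS replicate 3 they were again 2 and 3, beside 2.85% and 7.01%. With PBS replicate 1 left out they were 3 and 4, beside 3.27% and 8.33%. Without Cilengitide replicate 1 or replicate 2, Cilengitide had 2 and 3, beside 1.46% and 1.59% of all genes.

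**Figure D1:**
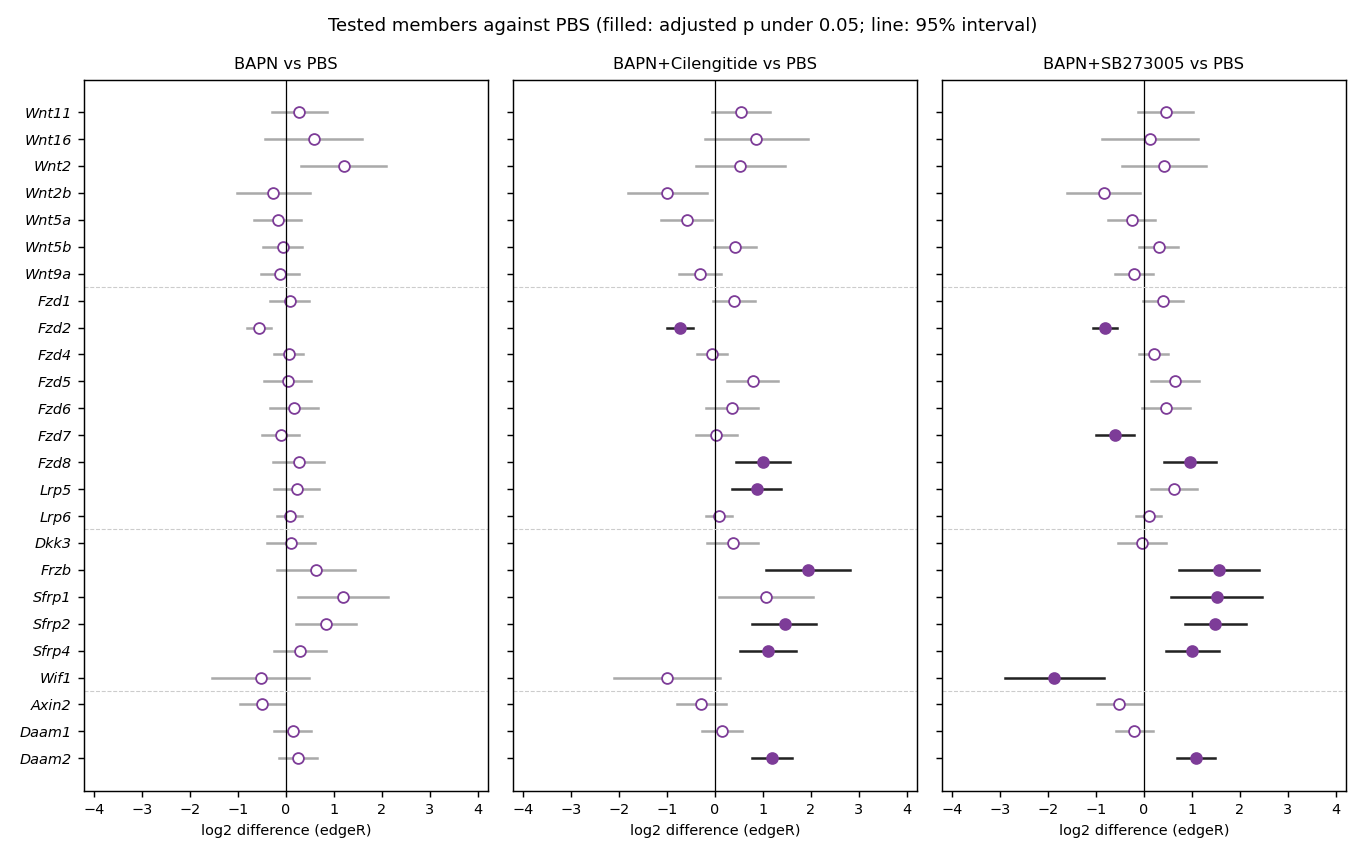
Log2 differences from PBS (x axis, edgeR) of the 25 tested Wnt genes (y axis, grouped as ligands, receptors, secreted inhibitors and intracellular genes), with lines for the 95% intervals; filled points passed at an adjusted p under 0.05. In BAPN 0 points are filled, in Cilengitide 7 and in SB273005 9, and none of the filled points is a ligand.

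Among the secreted inhibitors, 3 Frizzled-related genes rose in both groups given an inhibitor. Of the 6 tested, 3 rose and 0 fell in Cilengitide, and 4 rose and 1 fell in SB273005. Sfrp2, Frzb and Sfrp4 rose in both, Sfrp1 passed in SB273005 alone and Wif1 fell in SB273005 alone. Dkk3 passed in neither. Sfrp5, a Frizzled-related gene too low to be tested, was at 0.609 to 1.272 FPKM in PBS, 0.367 to 0.506 in Cilengitide and 0.685 to 1.167 in SB273005, so in Cilengitide it lay wholly below PBS.

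Sfrp2 (chr3:83766321-83774316, plus strand, mm10) was at 207, 159 and 139 FPKM in PBS, 494, 177, 243 and 282 in BAPN, 426, 367 and 540 in Cilengitide, and 444, 543, 430 and 380 in SB273005. All 7 libraries with an inhibitor lay above all 3 PBS libraries, while BAPN overlapped PBS at the bottom and the inhibitor groups through replicate 1. The log2 difference from PBS was 1.45 ± 0.31 (SE) in Cilengitide (edgeR adjusted p = 0.019) and 1.49 ± 0.29 in SB273005 (edgeR adjusted p = 0.00851). Within the first set the SB273005 difference was 1.58 (edgeR adjusted p = 0.0289). The call in Cilengitide was lost without PBS replicate 2 or 3, or without Cilengitide replicate 1 or 3 (edgeR adjusted p up to 0.0752), and that in SB273005 held with any 1 library left out. Gm26771 overlaps Sfrp2 on the other strand, and the strand setting of the counting is not known.

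Frzb (chr2:80411970-80447625, minus strand), a Frizzled-related gene known from cartilage, was at 13.6, 16.5 and 17.0 FPKM in PBS and at 47.4, 16.5, 21.0 and 12.4 in BAPN. It was at 75.7, 57.0 and 42.7 FPKM in Cilengitide and 49.9, 53.4, 39.2 and 36.4 in SB273005. Every library with an inhibitor exceeded all of PBS and all of BAPN except replicate 1. The log2 difference from PBS was 1.93 ± 0.41 in Cilengitide (edgeR adjusted p = 0.0184) and 1.57 ± 0.38 in SB273005 (edgeR adjusted p = 0.021; within the first set 1.67, adjusted p = 0.0193). Both calls were lost without any 1 of the PBS libraries, and that in Cilengitide also without Cilengitide replicate 1 or 2 (edgeR adjusted p up to 0.073 and 0.0688).

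Sfrp4 (chr13:19623104-19632994, plus strand) was at 8.29, 7.51 and 8.43 FPKM in PBS, 15.6, 7.68, 7.44 and 9.10 in BAPN, 19.5, 18.1 and 12.9 in Cilengitide, and 14.03, 20.7, 13.1 and 14.1 in SB273005. Again the inhibitor groups lay wholly above PBS, and BAPN replicate 1 alone of its group lay among them. The log2 differences from PBS were 1.10 ± 0.27 in Cilengitide and 1.00 ± 0.26 in SB273005 (edgeR adjusted p = 0.0342 and 0.0247), and within the first set the latter was 1.07 and did not pass (edgeR adjusted p = 0.0501). Both calls were lost without any 1 PBS library, and that in Cilengitide without Cilengitide replicate 1 or 2 (edgeR adjusted p up to 0.126 and 0.0855). Sfrp1 was at 7.05, 13.4 and 11.9 FPKM in PBS, 46.0, 18.2, 13.5 and 22.2 in BAPN, 19.6, 27.2 and 19.8 in Cilengitide, and 42.9, 38.4, 16.8 and 21.0 in SB273005. Each group with BAPN lay above PBS, though BAPN replicate 3 did so by 13.51 against 13.44 FPKM. The difference of 1.52 ± 0.44 in SB273005 passed (edgeR adjusted p = 0.0404), and those of 1.19 ± 0.44 in BAPN and 1.07 ± 0.46 in Cilengitide did not (edgeR adjusted p = 0.272 and 0.207). The Sfrp1 call was lost in 9 of the 14 fits with 1 library left out: without any PBS library, BAPN replicate 2 or 4, Cilengitide replicate 2 or 3, or SB273005 replicate 1 or 2 (edgeR adjusted p up to 0.123). Within the first set it did not pass (1.67, edgeR adjusted p = 0.0848).

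Wif1 (chr10:121033960-121100650, plus strand), which binds Wnt ligands through its WIF domain, went the other way. It was at 36.6, 40.2 and 40.6 FPKM in PBS, 24.1, 24.4, 33.6 and 26.1 in BAPN, 8.09, 19.4 and 29.9 in Cilengitide, and 7.72, 3.71, 8.92 and 21.1 in SB273005. Every one of the 11 libraries with BAPN was below every PBS library, and the 3 lowest SB273005 libraries are those of the first set, to which PBS also belongs. The log2 difference of -1.87 ± 0.48 in SB273005 passed (edgeR adjusted p = 0.0244), and was -2.47 within the first set (edgeR adjusted p = 0.0193). Those of -0.53 ± 0.47 in BAPN and -0.99 ± 0.51 in Cilengitide did not pass (edgeR adjusted p = 0.757 and 0.305), with intervals from -1.55 to 0.49 and from -2.10 to 0.11. With the library set in the fit, Wif1 was at -2.18 ± 0.62 in BAPN and -2.65 ± 0.64 in Cilengitide (edgeR adjusted p = 0.469 and 0.142), outside both intervals. Those values lean on SB273005 replicate 4, the single library that parts set from group in that fit. The SB273005 call was lost without PBS replicate 2 or 3, or SB273005 replicate 1 or 3 (edgeR adjusted p up to 0.0754). Dkk3 was at 191.9 to 206.2 FPKM in PBS, 168.9 to 234.7 in BAPN, 161.6 to 289.7 in Cilengitide and 138.2 to 248.2 in SB273005, so its groups overlapped throughout.

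Sums of cell type markers also differed between the groups, in part alongside these genes. The summed FPKM of 6 fibroblast markers was 702.8 to 889.7 in PBS, 1063 to 2101 in BAPN, 1516 to 2025 in Cilengitide and 1263 to 2419 in SB273005, with all 6 detected in each group and BAPN replicate 1 the highest of its group, as for Sfrp1, Sfrp2, Sfrp4 and Frzb. Summed smooth muscle markers, also 6 of 6 detected, were 8895 to 10580 in PBS, 6912 to 10540 in BAPN, 6044 to 7990 in Cilengitide and 1162 to 6962 in SB273005, where SB273005 replicate 2 was lowest both in these markers and in Wif1. Summed macrophage markers, 6 of 6 detected, ran from 117.5 to 245.6 in PBS and from 369 to 885.5 over the inhibitor groups. Other libraries did not go with the markers. Cilengitide replicate 3 had the lowest fibroblast sum of its group (1516) and the highest Sfrp2 (540 FPKM). Smooth muscle sums in BAPN overlapped PBS, while Wif1 was below PBS in every BAPN library. The part of these cell types in the Wnt gene differences was not tested, and in whole tissue fewer cells of a type and less RNA per cell cannot be told apart.

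**Figure D2:**
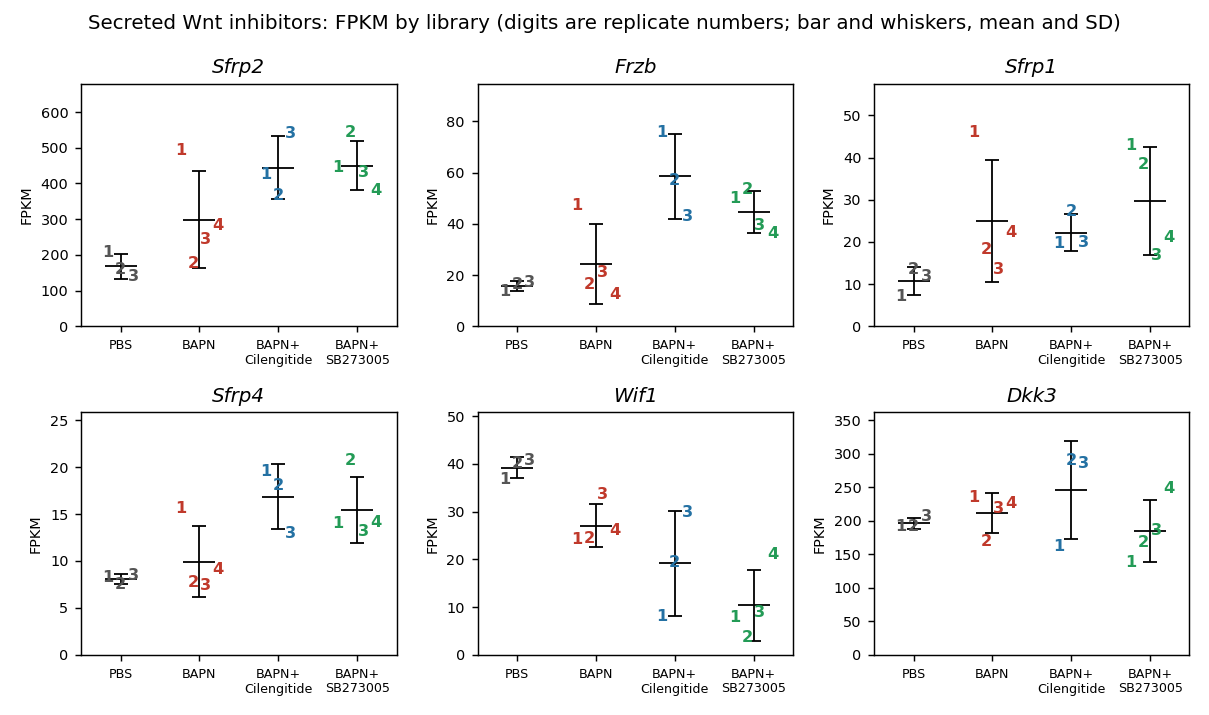
FPKM (y axis, linear from 0) of the 6 tested secreted inhibitors in each library, by group (x axis); digits are replicate numbers, and the bar with whiskers is the mean and SD. Sfrp2, Frzb and Sfrp4 lie wholly above PBS in both inhibitor groups, Wif1 lies below PBS in all 11 libraries with BAPN, and BAPN replicate 1 is the highest of its group for Sfrp2 (494), Frzb (47.4), Sfrp1 (46.0) and Sfrp4 (15.6).

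The sequences before the starts of Sfrp2 and Wif1 are shown because these inhibitors changed in opposite directions, and that of Axin2 because it is the textbook target of β-catenin among the 42 genes. They are from RefSeq (GRCm38.p6, the assembly behind mm10), on the plus strand, ending at the base before the start of the deposited gene: chr3:83766071-83766320 for Sfrp2, chr10:121033754-121033959 for Wif1 and chr11:108920099-108920348 for Axin2. Capitals mark GC boxes (GGGCGG) and TATAAA, on either strand.
Sfrp2: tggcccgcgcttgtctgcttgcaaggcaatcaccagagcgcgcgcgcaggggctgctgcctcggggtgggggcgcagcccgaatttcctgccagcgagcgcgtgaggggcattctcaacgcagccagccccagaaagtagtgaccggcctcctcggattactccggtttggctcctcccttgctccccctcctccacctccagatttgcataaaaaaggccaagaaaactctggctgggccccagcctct
Wif1: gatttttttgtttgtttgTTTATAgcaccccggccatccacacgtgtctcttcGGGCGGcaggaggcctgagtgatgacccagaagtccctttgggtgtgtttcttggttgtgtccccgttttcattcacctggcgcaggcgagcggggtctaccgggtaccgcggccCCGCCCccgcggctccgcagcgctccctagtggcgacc
Axin2: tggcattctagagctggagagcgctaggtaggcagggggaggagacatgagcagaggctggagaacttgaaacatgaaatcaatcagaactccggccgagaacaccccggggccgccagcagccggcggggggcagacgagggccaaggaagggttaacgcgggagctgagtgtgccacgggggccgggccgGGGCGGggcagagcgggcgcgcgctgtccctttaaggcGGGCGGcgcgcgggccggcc
Of the 42 genes 29 had a RefSeq entry, 16 of them tested, with 34 promoters in all. In the 250 bases before the start, the core of the TCF and LEF site (CTTTGA, both strands) was found in 6 of these 34, belonging to Daam1, Dkk1, Frzb, Fzd1, Wnt11 and Wnt5b, and in 13.8% of 32851 promoters. The GC box was found in 25 of the 34 and in 32.7% of all promoters, TATAAA in 5 and 12.4%, the AP-1 site (TGANTCA) in 1, Wnt5b, and 6.75%, and GGAATG, the letters of a TEAD site, in 0 and 12.6%. None of these letters, apart from the GC boxes and TATAAA marked, stands in the 3 windows shown.

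Among the receptors, Fzd2 fell and Fzd8 rose in both inhibitor groups, Lrp5 rose in Cilengitide and Fzd7 fell in SB273005. Of the 9 tested, 2 rose and 1 fell in Cilengitide, and 1 rose and 2 fell in SB273005. The 4 Frizzled genes Fzd1, Fzd4, Fzd5 and Fzd6 and the coreceptor Lrp6 passed in neither by edgeR; DESeq2 called Fzd5 in Cilengitide (log2 difference 0.79, adjusted p = 0.0306).

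Fzd2 (chr11:102604396-102608058, plus strand, a gene of 1 exon) was at 45.0, 44.3 and 36.7 FPKM in PBS, 31.2, 29.2, 28.0 and 25.3 in BAPN, 24.9, 21.9 and 27.2 in Cilengitide, and 20.15, 22.6, 22.9 and 25.7 in SB273005. Every library with BAPN was below every PBS library, and 3 of the 4 BAPN libraries were above every library with an inhibitor. The log2 difference from PBS was -0.56 ± 0.12 in BAPN (edgeR adjusted p = 0.0537, not passing), -0.73 ± 0.13 in Cilengitide (adjusted p = 0.00862) and -0.82 ± 0.12 in SB273005 (adjusted p = 0.00229; within the first set -0.87, adjusted p = 0.0335). The calls in both inhibitor groups held with any 1 library left out. In BAPN vs. PBS Fzd2 passed without SB273005 replicate 1, 2 or 4, which enter only through the shared estimate of the spread (edgeR adjusted p = 0.0423, 0.0445 and 0.0494), and in DESeq2 (adjusted p = 0.000415).

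Fzd8, also a gene of 1 exon, was at 4.96, 3.56 and 4.41 FPKM in PBS, 8.22, 4.41, 4.08 and 3.98 in BAPN, 10.4, 8.43 and 6.13 in Cilengitide, and 8.02, 7.32, 10.2 and 6.71 in SB273005. The inhibitor groups lay wholly above PBS, and in BAPN replicate 1 alone did. The log2 difference was 1.00 ± 0.26 in Cilengitide and 0.96 ± 0.25 in SB273005 (edgeR adjusted p = 0.0459 and 0.0268), and 1.06 within the first set (edgeR adjusted p = 0.0278). The SB273005 call was lost without any 1 PBS library or SB273005 replicate 3 (edgeR adjusted p up to 0.108). That in Cilengitide was lost in 10 of 14 such fits: without any PBS library, BAPN replicate 2 or 3, Cilengitide replicate 1 or 2, or SB273005 replicate 1, 3 or 4 (edgeR adjusted p up to 0.179).

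Fzd7 (chr1:59482424-59486955) was at 29.4, 26.9 and 26.1 FPKM in PBS, 26.5, 28.0, 25.8 and 20.9 in BAPN, 26.6, 26.2 and 28.8 in Cilengitide, and 19.0, 10.3, 19.5 and 21.2 in SB273005. SB273005 lay wholly below PBS and Cilengitide, with replicate 2, the library low in smooth muscle markers, at the bottom. The difference from PBS was -0.60 ± 0.18 (edgeR adjusted p = 0.0454), and it did not pass within the first set (-0.69, edgeR adjusted p = 0.135). It was lost in 11 of the 14 fits with 1 library left out (edgeR adjusted p up to 0.131), and kept without BAPN replicate 4 or SB273005 replicate 2 or 4. In Cilengitide the Fzd7 difference was 0.03 ± 0.19 (edgeR adjusted p = 0.957; interval -0.39 to 0.45).

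Lrp5 (chr19:3584828-3686564), a coreceptor, was at 5.66, 6.69 and 5.78 FPKM in PBS, 9.04, 5.83, 5.83 and 7.60 in BAPN, 13.1, 10.3 and 8.89 in Cilengitide, and 12.9, 6.69, 8.41 and 8.06 in SB273005. Cilengitide lay wholly above PBS, and SB273005 met the highest PBS library through replicate 2. The log2 difference was 0.87 ± 0.23 in Cilengitide (edgeR adjusted p = 0.0474) and 0.63 ± 0.22 in SB273005, which did not pass (edgeR adjusted p = 0.0772; DESeq2 adjusted p = 0.0432). The Cilengitide call was lost in 10 of 14 fits with 1 library left out (edgeR adjusted p up to 0.184), and kept without BAPN replicate 1, Cilengitide replicate 3, or SB273005 replicate 1 or 2. Lrp6, the other coreceptor, was at 5.14 to 7.01 FPKM in PBS and 5.11 to 6.76 in SB273005, with a difference of 0.10 ± 0.12 (edgeR adjusted p = 0.65; interval -0.17 to 0.36). Fzd1, the most abundant Frizzled gene outside PBS, was at 36.7 to 48.1 FPKM in PBS, 37.1 to 58.0 in BAPN, 49.9 to 57.1 in Cilengitide and 41.2 to 69.5 in SB273005, and Fzd4 was at 10.2 to 16.2 in all 14 libraries. Fzd5 was at 1.67 to 2.49 FPKM in PBS and at 2.51 to 4.91 in the libraries with an inhibitor, and Fzd6 at 4.48 to 4.99 and 4.99 to 9.24; both groups lay above PBS for each gene without passing in edgeR.

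**Figure D3:**
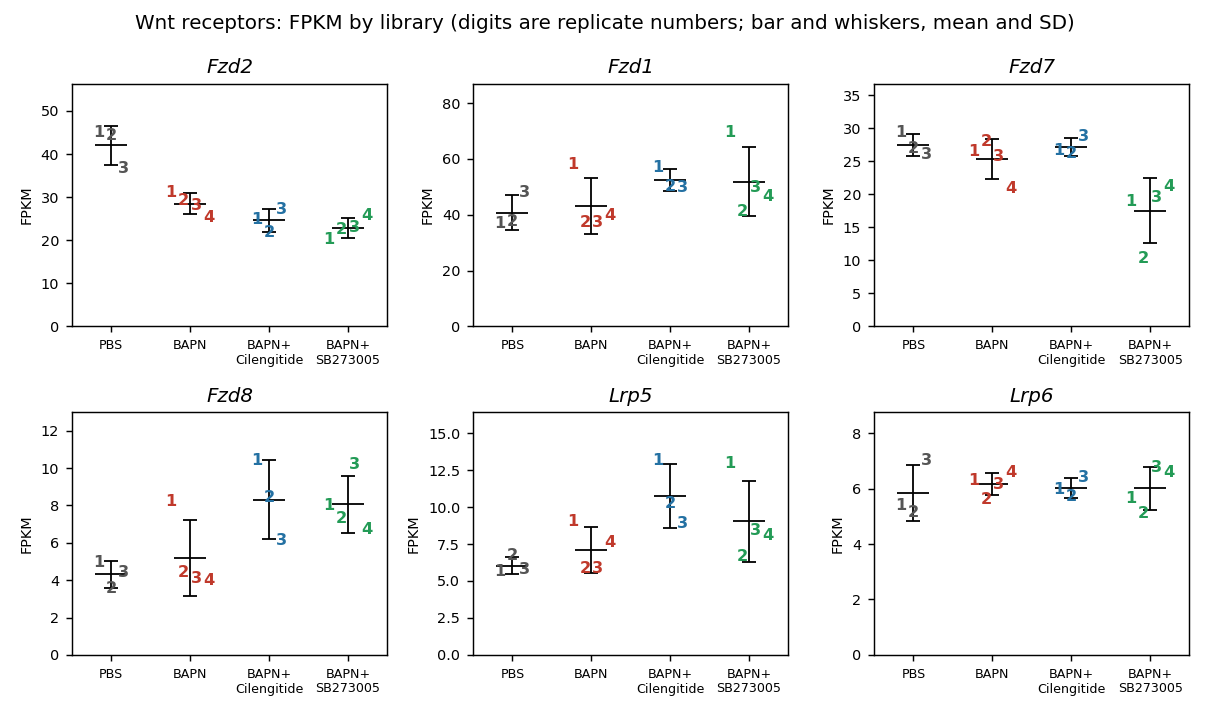
FPKM (y axis, linear from 0) of Fzd2, Fzd1, Fzd7, Fzd8, Lrp5 and Lrp6 in each library, by group (x axis); digits are replicate numbers, and the bar with whiskers is the mean and SD. Fzd2 lies below its lowest PBS library (36.7) in all 11 libraries with BAPN, Fzd8 lies above PBS in both inhibitor groups, and Fzd7 is lowest in SB273005 replicate 2 (10.3).

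No ligand passed in any of the 6 comparisons. Of the 7 tested, 1 had an unadjusted p under 0.05 in BAPN vs. PBS, 2 in Cilengitide vs. PBS and 1 in SB273005 vs. PBS, and the smallest adjusted p (edgeR) was 0.226, 0.158 and 0.132. Wnt2, a ligand of the β-catenin branch, was at 0.556, 0.835 and 0.504 FPKM in PBS, 1.96, 1.56, 0.966 and 1.42 in BAPN, 0.781, 0.860 and 1.04 in Cilengitide, and 1.15, 0.967, 0.887 and 0.277 in SB273005. BAPN lay wholly above PBS, without passing (log2 difference 1.21 ± 0.41, edgeR adjusted p = 0.226). Wnt2 reached 1 FPKM in 5 libraries, 3 of them BAPN, so it entered the test mainly through the group where it is highest. Wnt5a, the main ligand of the polarity and calcium branches, was at 4.72 to 8.10 FPKM in PBS, 5.20 to 6.23 in BAPN, 3.20 to 5.05 in Cilengitide and 4.13 to 7.03 in SB273005. Its difference was -0.17 ± 0.23 in BAPN (edgeR adjusted p = 0.86). Wnt2b ran from 1.21 to 2.46 FPKM in PBS, 1.35 to 2.24 in BAPN, 0.710 to 1.31 in Cilengitide and 0.508 to 1.36 in SB273005.

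The other ligands overlapped between all 4 groups. Over all libraries Wnt9a was at 3.40 to 6.90 FPKM, Wnt5b at 2.42 to 4.64 and Wnt11 at 0.648 to 1.58. Wnt16 had the widest spread, from 1.09 FPKM in SB273005 replicate 2 to 9.48 in BAPN replicate 1. Wnt5a, Wnt5b and Wnt2b each overlap another gene in the annotation, so their counts may hold reads of Gm2670, Fbxl14 and Gm43846.

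Inside the cell, Daam2 rose in both inhibitor groups. Daam1 and Daam2 are formins that act in the polarity branch, and Axin2 is a scaffold of the complex that breaks down β-catenin and is itself switched on by β-catenin. Daam2 (chr17:49456022-49564343, minus strand) was at 0.782, 0.975 and 0.930 FPKM in PBS, 1.36, 0.938, 0.902 and 1.10 in BAPN, 2.44, 2.03 and 1.53 in Cilengitide, and 1.96, 1.90, 1.80 and 1.64 in SB273005. Every library with an inhibitor lay above every library without one. The log2 difference from PBS was 1.19 ± 0.20 in Cilengitide (edgeR adjusted p = 0.00723) and 1.08 ± 0.19 in SB273005 (adjusted p = 0.00493; within the first set 1.14, adjusted p = 0.0304), and both calls held with any 1 library left out. Daam2 passed the filter through 9 libraries, none of them PBS, so it entered the test through the groups where it is high; both calls also stood with no filter. Daam1 was at 3.86 to 6.42 FPKM in PBS and 3.83 to 4.42 in SB273005 and passed nowhere.

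Axin2 (chr11:108920349-108950783) was at 1.22, 0.959 and 1.30 FPKM in PBS, 1.09, 0.739, 0.733 and 0.716 in BAPN, 1.20, 0.799 and 0.777 in Cilengitide, and 0.765, 0.831, 0.910 and 0.620 in SB273005. All 4 SB273005 libraries were below PBS, and in BAPN and Cilengitide replicate 1 alone reached into the PBS range. The log2 differences were -0.50 ± 0.22, -0.29 ± 0.23 and -0.51 ± 0.22, and none passed (edgeR adjusted p = 0.376, 0.552 and 0.139). The intervals, from -0.96 to -0.03 in BAPN and from -0.97 to -0.04 in SB273005, leave out 0 before adjustment for the 13294 genes tested. Axin2 reached 1 FPKM in 4 libraries, 2 of them PBS. On its coding transcript ENSMUST00000052915 alone SB273005 overlapped PBS, at 0.53 to 1.053 FPKM against 0.8964 to 1.635.

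**Figure D4:**
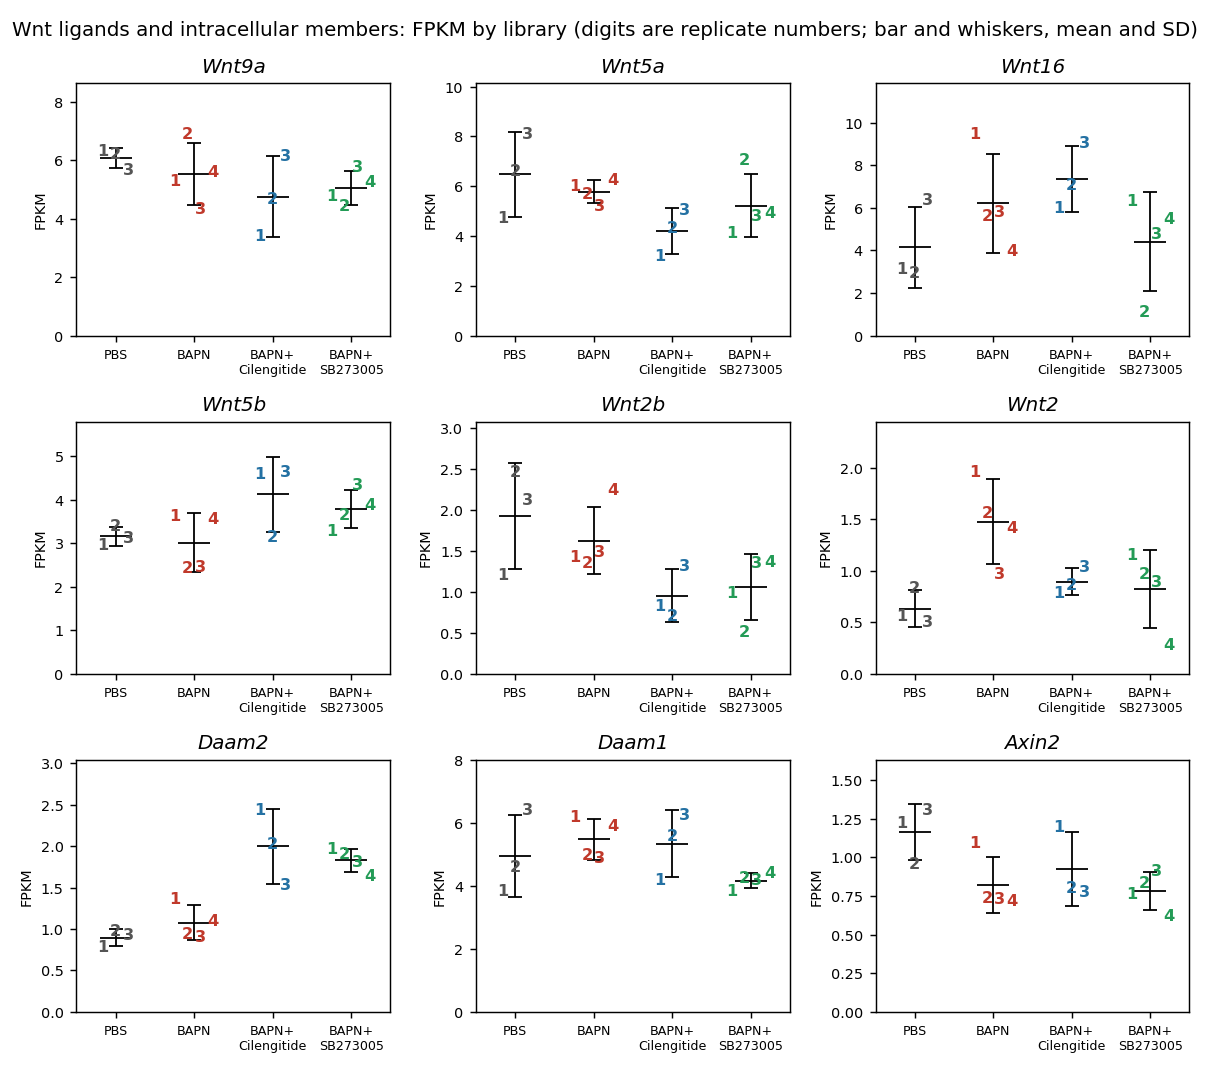
FPKM (y axis, linear from 0) of 6 of the 7 tested ligands and of Daam2, Daam1 and Axin2 in each library, by group (x axis); digits are replicate numbers, and the bar with whiskers is the mean and SD. Daam2 lies at 1.53 to 2.44 in the inhibitor groups and at 0.782 to 1.36 in the others, Wnt2 is highest in BAPN, and the remaining ligands overlap PBS.

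Against BAPN alone, no Wnt gene passed with either inhibitor. The percent of all genes called higher and lower was 0 and 0 for Cilengitide vs. BAPN, and 0.00752 and 0.0226 for SB273005 vs. BAPN. Of the 25, 8 had an unadjusted p under 0.05 for Cilengitide and 10 for SB273005, counts with no share of all genes beside them. The edgeR adjusted p of the 25 ran from 0.795 and from 0.109 upward. DESeq2 called 1 in each, Daam2 (adjusted p = 0.0033 and 0.00173), beside 0.158% and 2.97% of all genes. Groups did not overlap for 3 genes with either inhibitor, where the percent over all genes was 10.5 and 7.87. The 6 genes that passed against PBS in both inhibitor groups have these differences from BAPN, which rest on the same inhibitor libraries. Daam2 was 0.93 ± 0.18 higher in Cilengitide (interval 0.55 to 1.32) and 0.82 ± 0.17 in SB273005 (0.46 to 1.19), and Frzb was 1.31 ± 0.36 and 0.94 ± 0.34 higher. Sfrp2 stood at 0.61 and 0.65, Sfrp4 at 0.80 and 0.70, Fzd8 at 0.73 and 0.69, and Fzd2 at -0.17 and -0.26.

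Leaving out BAPN replicate 1 changed the calls in SB273005 vs. BAPN, while Cilengitide vs. BAPN still called 0 Wnt genes and 0% of all genes. Without that library SB273005 vs. BAPN called 3 Wnt genes, Daam2 at 0.95, Frzb at 1.47 and Fzd8 at 0.99 (edgeR adjusted p = 0.0437, 0.0359 and 0.0411), and 0.354% of all genes. Without SB273005 replicate 4 it called 1, Wif1 at -1.96 (edgeR adjusted p = 0.0464), and 0.594% of all genes. In that fit no SB273005 library shares the library set of BAPN, so sets and groups cannot be told apart. With all libraries Wif1 was at -1.34 ± 0.45 against BAPN in SB273005 (edgeR adjusted p = 0.207), where the groups do not overlap, and at -0.46 ± 0.48 in Cilengitide. With the library set in the fit the SB273005 difference of Wif1 was -0.31 ± 0.54. Sfrp1 differed by -0.12 ± 0.42 and 0.33 ± 0.39, Fzd1 by 0.33 ± 0.19 and 0.32 ± 0.18, Lrp6 by 0.01 ± 0.12 and 0.02 ± 0.11, Dkk3 by 0.25 ± 0.23 and -0.15 ± 0.21, Wnt5a by -0.42 ± 0.23 and -0.08 ± 0.21, and Axin2 by 0.21 ± 0.22 and -0.01 ± 0.20. BAPN and Cilengitide belong to 1 library set, so their comparison is not touched by the sets, while in SB273005 vs. BAPN replicate 4 alone shares the set of BAPN.

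Between the 2 inhibitors, given at doses the labels do not state, 0 of the 25 genes passed and 0% of all genes were called in either direction. In this single pair of compounds 1 Wnt gene, Fzd7, had an unadjusted p under 0.05, and DESeq2 called 0. Fzd7 was 0.63 ± 0.18 lower in SB273005 on the log2 scale (edgeR log2 difference -0.63, adjusted p = 0.5; interval -1.02 to -0.24). For the other genes that passed against PBS in 1 inhibitor group, the difference SB273005 minus Cilengitide was -0.88 for Wif1 (interval -1.90 to 0.14), 0.45 for Sfrp1 (-0.47 to 1.37) and -0.24 for Lrp5 (-0.71 to 0.22), so a pass in 1 group is not shown to be a difference between compounds. The genes that passed in both had intervals of -0.57 to 0.65 for Sfrp2, -1.15 to 0.42 for Frzb, -0.64 to 0.44 for Sfrp4, -0.56 to 0.49 for Fzd8, -0.35 to 0.16 for Fzd2 and -0.50 to 0.28 for Daam2. None of these reaches the size of the gene's own changes from PBS, such as 1.45 and 1.49 for Sfrp2. Smaller differences between the inhibitors remain within them, so the compounds are not shown to act alike.

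**Figure D5:**
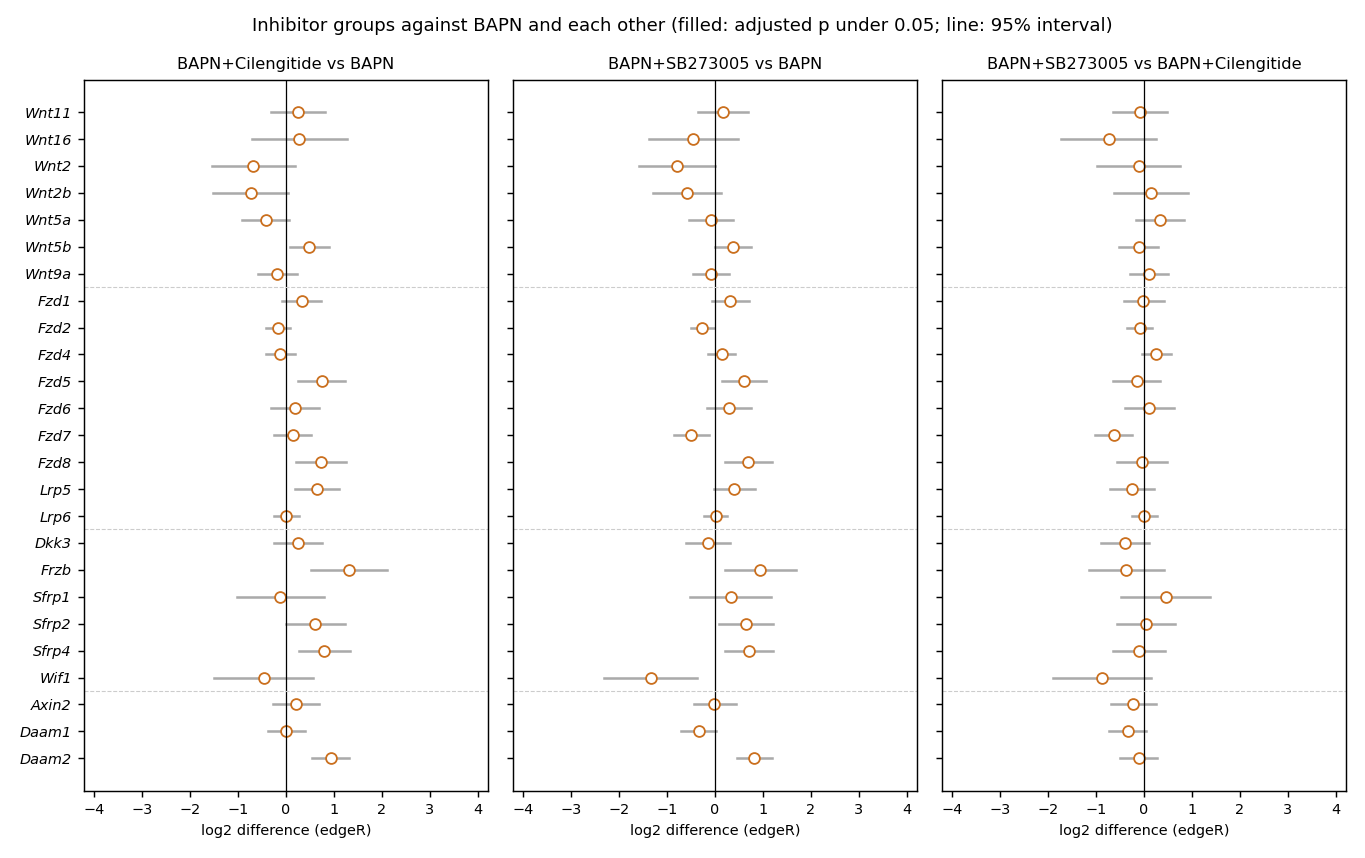
Log2 differences (x axis, edgeR) of the 25 tested Wnt genes (y axis) for Cilengitide vs. BAPN, SB273005 vs. BAPN and SB273005 vs. Cilengitide, with lines for the 95% intervals; open points did not pass. All points are open. Daam2, Frzb, Fzd5, Fzd8, Sfrp2, Sfrp4 and Wnt5b lie right of 0 with their intervals against BAPN in both inhibitor groups, and Lrp5 in Cilengitide. Wif1, Fzd7 and Fzd2 lie left of 0 with theirs against BAPN in SB273005, and Fzd7 also in the comparison of the inhibitors.

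The wider pathway was read from 4 lists of other genes, and in BAPN vs. PBS 0 genes of any list passed (edgeR; 3, 4, 2 and 7 of them had an unadjusted p under 0.05, in the order below). Over all genes tested, 5.58% were called in Cilengitide and 13.2% in SB273005, against which each list's share is set. Of 18 tested coreceptors and modulators at the membrane, 1 rose in Cilengitide (5.56%, the share of all genes), and 3 rose and 3 fell in SB273005 (33.3%). Lrp4, a receptor that binds sclerostin, rose in both by 0.80 ± 0.21 and 0.86 ± 0.20 (edgeR adjusted p = 0.044 and 0.0169). In SB273005 the Wnt5a receptor Ror2 went from 0.657 ± 0.125 to 2.103 ± 1.16 FPKM, a log2 difference of 1.74 ± 0.40, and Adgra2, a coactivator of Wnt7 signals, rose by 0.81 ± 0.19 (edgeR adjusted p = 0.0161 and 0.0156). The R-spondin receptors Lgr6 and Lgr4 had log2 differences of -1.47 and -0.62, and Znrf3, a ubiquitin ligase that removes Frizzled receptors, fell by 0.64 (edgeR adjusted p = 0.0107, 0.0477 and 0.0462). The median over the list was 0.25 in each inhibitor group. Lrp4 and Ror2 were under 1 FPKM in every PBS library, so they entered the test, and these shares, through the groups where they are higher. With no filter on low values the Lrp4 call in Cilengitide was lost. In BAPN, Lrp4 (0.864 to 1.11 FPKM against 0.499 to 0.792 in PBS) and Ror2 already lay wholly above PBS, without passing. Lgr6 in BAPN lay wholly below it (31.9 to 40.3 against 50.4 to 60.3 FPKM). Adgra2, Lgr4 and Znrf3 overlapped PBS there, and over all genes 14.6% did not overlap.

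Of 33 tested genes of the β-catenin branch inside the cell, 1 rose and 1 fell in Cilengitide, and 2 rose and 2 fell in SB273005, with medians of -0.03 and 0.05. These shares of 6.06% and 12.1% are near those of all genes and are no result about the branch. Ctbp2, a corepressor, rose by 0.43 and 0.50, and Cby1, an antagonist of β-catenin, fell by 0.47 and 0.55 (edgeR adjusted p = 0.0488, 0.0127, 0.0378 and 0.00874). In SB273005 the kinase gene Csnk1g3 rose by 0.30 and the corepressor Tle4 fell by 0.49 (edgeR adjusted p = 0.0423 and 0.0453). Of 24 tested genes of the polarity and calcium branches, 2 rose and 1 fell in Cilengitide (12.5%) and 1 rose and 1 fell in SB273005 (8.33%, below the share of all genes). Nfatc2, a transcription factor set free by calcium signals, rose by 1.25 and 1.26, and Camk2g, a calcium-dependent kinase, fell by 0.57 and 0.82 (edgeR adjusted p = 0.0333, 0.0169, 0.0391 and 0.00388). Prickle2, a polarity gene, rose in Cilengitide by 0.70 (edgeR adjusted p = 0.024). Cby1, Tle4, Nfatc2 and Camk2g in BAPN already lay wholly outside PBS in the same direction, without passing, while Ctbp2, Csnk1g3 and Prickle2 overlapped it. Nfatc2, for example, was at 0.651 to 1.317 FPKM in BAPN against 0.369 to 0.507 in PBS. It too entered the test through groups where it is higher, and with no filter on low values its call in Cilengitide was lost.

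The list of targets and feedback genes had the highest share of calls among the 4 in SB273005. Of its 16 tested genes 4 rose and 1 fell in Cilengitide, and 6 rose and 3 fell in SB273005 (31.2% and 56.2%), with medians of 0.21 and 0.33. Ccn4, a matricellular gene also called Wisp1, was at 1.53 ± 0.345 FPKM in PBS, 5.10 ± 4.85 in BAPN, 8.83 ± 3.47 in Cilengitide and 11.6 ± 7.30 in SB273005. All 4 BAPN libraries already lay above PBS (2.28 to 12.35 against 1.23 to 1.91 FPKM), a log2 difference of 1.72 ± 0.63 that did not pass (edgeR adjusted p = 0.274). In the inhibitor groups the Ccn4 differences from PBS were 2.56 ± 0.68 and 2.98 ± 0.67 (edgeR adjusted p = 0.0459 and 0.0144). Ccnd1, the gene of cyclin D1, rose by 1.70 ± 0.40 and 1.66 ± 0.38, and the receptor gene Ephb2 by 0.99 in each (edgeR adjusted p = 0.029, 0.0168, 0.037 and 0.019). Ccnd1 in BAPN was at 6.54 to 9.21 FPKM against 3.72 to 4.8 in PBS, again above it without passing (log2 difference 0.83 ± 0.37, edgeR adjusted p = 0.403). Cd44, a hyaluronan receptor, rose by 0.99 in Cilengitide (edgeR adjusted p = 0.0463). Feedback genes moved both ways: Dact3, which acts on Dishevelled, fell by 0.68 and 0.73, and in SB273005 the Naked genes parted, Nkd1 falling by 0.89 and Nkd2 rising by 1.29 (edgeR adjusted p = 0.0338, 0.011, 0.00806 and 0.0389). Ephb2, Dact3 and Nkd1 in BAPN also lay wholly outside PBS in the same direction, without passing, while Cd44 and Nkd2 overlapped it. Nkd1 was at 14.1 to 16.4 FPKM in BAPN against 20.5 to 21.8 in PBS. Ephb2 was under 1 FPKM in every PBS library, so it entered the test through groups where it is higher. With no filter on low values both Ephb2 calls were lost. Several of these targets also respond to other pathways, and the macrophage and fibroblast marker sums given above were higher in the same groups; their part in these differences was not tested.

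The calls named from the 4 lists were also read with 1 library left out. In Cilengitide all 11 were lost without any 1 of PBS replicate 2, Cilengitide replicate 1 and Cilengitide replicate 2. In SB273005, 14 of the 18 were lost without PBS replicate 2 and 12 without PBS replicate 1. The SB273005 calls on Camk2g, Lgr6 and Nkd1 held with any 1 library left out (edgeR adjusted p up to 0.0239, 0.0411 and 0.0411), while Lgr4 and Csnk1g3 were each lost in 13 of 14 such fits. Within the first set, of the 18 SB273005 calls only those on Camk2g, Ccn4 and Nfatc2 stood, so those on Lgr6 and Nkd1 did not. With the library set as a term in the fit, all 11 Cilengitide calls were lost.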

How the data were processed

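RNA from the ascending aorta was extracted with Trizol, per the labels' protocols, and sequenced as 14 bulk libraries in 4 groups. Reads were aligned with HISAT2 2.2.1 and quantified with StringTie 2.1.6, with mm10 as the genome, per the submitters' processing notes. Which annotation release and strand setting were used is not given in the sources used here. The authors deposited an FPKM and an estimated count per gene (32289) and transcript (94714) for each library. Per the file headers, 0 columns of values were left out. Estimated counts are not reads assigned whole, so the model of counting error is approximate.

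Estimated counts were tested with edgeR 4.0.16 in R 4.3.3: quasi-likelihood, TMM, 1 fit over 14 libraries, genes whose FPKM reached 1 in 3 or more libraries (13294, holding at least 98.84% of counts), Benjamini-Hochberg adjustment over all of them, threshold 0.05. SE came from the log2 difference and the F statistic, and 95% intervals from a t distribution, so both are approximate. All 18 replicate pairs differed by more than sampling noise (chi-square per degree of freedom at least 44.98). The steps were tested on simulated data. Replicate numbers, from the labels, were taken to pair Cilengitide with SB273005, where all 3 same-numbered pairs deviated together (correlations 0.302, 0.154 and 0.221). The unlike-numbered pair of Cilengitide replicate 3 and SB273005 replicate 4 reached 0.243, so this pairing is uncertain. The differences printed between these groups are from the fit without the replicate block, and the block changed no call there.

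The genes, lists, library sets and rules were chosen with earlier results of these data known. Named were all genes of the 42 that passed, 8 more (Axin2, Sfrp1, Frzb, Wif1, Dkk3, Wnt5a, Lrp6 and Fzd1) against PBS in BAPN and against BAPN in both inhibitor groups, and up to 6 passing genes per list and comparison. Other values named outside that rule were chosen after they were seen, as were the promoter motifs. Alternatives were DESeq2 1.42.0, its size factors, limma 3.58.1 on log2(FPKM + 1), on log2(FPKM + 0.1) and on quantile-normalised values, other filters, only the groups compared, a replicate block, the library set as a term or within the first set, and leaving out each library.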

Additional observations from a re-analysis of the deposited data

Results flagged for a closer look

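In groups of 4 libraries, the highest or lowest value was set against Dixon's criterion for a value that stands apart, which chance passes in about 1 in 20 groups; 5 of 50 groups passed, and 3 of the 5 are BAPN replicate 1. That library had Fzd1 at 57.96 FPKM against 37.13 to 39.65 in the other BAPN libraries. Its Fzd8 was at 8.221 FPKM against 3.984 to 4.411. Its Axin2 was at 1.092 FPKM against 0.7161 to 0.739. BAPN replicate 4 had Wnt2b at 2.236 FPKM against 1.351 to 1.486, and SB273005 replicate 2 had Sfrp4 at 20.67 FPKM against 13.1 to 14.05 in its group.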

How the results depend on the processing

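The number of Wnt genes called in Cilengitide vs. PBS was 7, and 4 with no filter on low values, 4 with limma on quantile-normalised values and 0 in a fit that adds the library set, where SB273005 replicate 4 is the single library that parts set from group; calls over all genes fell there from 742 to 5, and all 7 differences were larger than without the set. In SB273005 vs. PBS it was 9, and 5 with no filter. DESeq2 called 1 where edgeR called 0 in BAPN vs. PBS, Cilengitide vs. BAPN and SB273005 vs. BAPN, beside 3.61%, 0.158% and 2.97% of all genes. With 1 library left out the counts ran from 0 to 1 in BAPN vs. PBS, 2 to 7 in Cilengitide vs. PBS, 3 to 9 in SB273005 vs. PBS and 0 to 3 in SB273005 vs. BAPN, and stayed at 0 in the other 2 comparisons. DESeq2 called 480, 1465 and 2607 genes over all genes in the 3 comparisons with PBS, where edgeR called 31, 742 and 1754. With only the 2 groups compared, edgeR called 105, 1071 and 534. With the replicate block the Wnt counts were 0, 8 and 9 against PBS and 0 in the other 3; Fzd5 was added in both inhibitor groups and Fzd7 was lost in SB273005. In each comparison with PBS or BAPN at least 1 same-numbered pair had a correlation of deviations under 0.1 (lowest -0.159, highest 0.337), so the numbers were not taken to pair those libraries, although replicate 1 of every group deviated together (0.106 to 0.302).

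Signs turned in differences that had not passed. In BAPN vs. PBS, with the set in the fit, Dkk3 was at -0.49 and Lrp6 at -0.10; with 1 library left out Fzd1 ran from -0.09 to 0.22, Fzd8 from -0.03 to 0.38, Lrp6 from -0.01 to 0.24 and Wnt5a from -0.38 to 0.03. In Cilengitide vs. BAPN Lrp6 was at -0.03 in limma with either pseudocount, and with 1 library left out its lowest value was -0.03, Sfrp1 ran from -0.32 to 0.34 and Axin2 from -0.00 to 0.37. In SB273005 vs. BAPN Axin2 was at 0.00 with the replicate block and ran from -0.08 to 0.15 with 1 library left out, and Wnt5a from -0.29 to 0.02. There Lrp6 was at -0.02 with no filter, -0.01 with edgeR's own filter and on quantile-normalised values, -0.03 and -0.04 in limma with a pseudocount of 1 and 0.1, and -0.03 to 0.07 with 1 library left out. With the set in the fit, Dkk3 and Sfrp1 in SB273005 vs. BAPN were at 0.28 and -0.19, and Sfrp1 and Wif1 in SB273005 vs. Cilengitide at -0.06 and 0.16. The cause was not tested. Of the Wnt gene calls, 68 of 224 tests with 1 library left out and 33 of 169 in other settings no longer passed; of the calls named from the 4 lists, 148 of 406 and 104 of 308. Of the Wnt genes tested, Wnt2 had the fewest estimated counts (36 to 354 in a library). Replicates differed by far more than counting error, so depth is not shown to limit these tests.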

Other observations

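The makeup of the Frizzled genes differed between the groups; these sums and ratios were chosen after the values were seen and carry no test. Summed FPKM of Fzd1 to Fzd10 was 132 to 138 in PBS, 114 to 147 in BAPN, 126 to 144 in Cilengitide and 108 to 139 in SB273005. In BAPN and in SB273005 every library but replicate 1 was below all of PBS. Fzd2 made up 26.6 to 33.5% of that sum in PBS, 21.3 to 24.7% in BAPN, 17.3 to 20.2% in Cilengitide and 14.5 to 20.9% in SB273005, while Fzd1 made up 27 to 34.9% in PBS and 37.1 to 49.9% over the inhibitor groups. In PBS 2 of the 3 libraries held more Fzd2 than Fzd1, and all 11 libraries with BAPN held less, with Fzd2 over Fzd1 at 0.764 to 1.23 in PBS, 0.538 to 0.783 in BAPN and 0.29 to 0.552 with an inhibitor. The 5 Frizzled-related genes summed to 177 to 236 FPKM in PBS, 220 to 603 in BAPN and 452 to 656 with an inhibitor, and Sfrp2 was 78.1 to 87.7% of the sum in every group. Summed ligand FPKM was 20.5 to 30.9 over all 14 libraries. Frzb over Wif1 was 0.37 to 0.418 in PBS, 0.476 to 1.97 in BAPN, 1.43 to 9.37 in Cilengitide and 1.73 to 14.4 in SB273005.

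Transcript values show where some gene values come from. For Sfrp4 the longer transcript, ENSMUST00000222464 of 4049 bases, was at 1.73 to 3.57 FPKM in PBS, 6.77 to 10.1 in Cilengitide and 1.78 to 7.4 in SB273005, which overlaps PBS. The shorter, ENSMUST00000002883 of 1764 bases, was at 11.4 to 14.8 FPKM in PBS, 14.7 to 22.4 in Cilengitide and 16.0 to 38.4 in SB273005. Daam2 was carried by ENSMUST00000224954, which the table lists as a retained intron, at 0.853 to 1.06 FPKM in PBS and 1.65 to 2.65 over the inhibitor groups, so its rise is not shown for a coding transcript. Wif1 was carried by its coding transcript ENSMUST00000020439, at 35.6 to 39.2 FPKM in PBS and 3.54 to 21.9 in SB273005. Shares between transcripts are estimates of the assembler and were not tested.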
